A study of Mus musculus with 47 samples.

Results

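The comparison described here set mouse embryonic stem (ES) cells of the 3XKO line, which carry the genotype Tcf7-/- Tcf7l2-/- Lef1-/- and keep Tcf7l1, against wild-type (WT) ES cells, both as epiblast-like cells (EpiLC) given the Gsk3 inhibitor CHIR99021. It rests on 6 of the 47 arrays of the study, the 3 arrays of 3XKO EpiLC+CH and the 3 of WT EpiLC+CH, chosen by their titles, and on all 25697 probes. Both groups spent 3 days in N2B27 medium that held Fgf2 at 12 ng/mL, and 3 uM CHIR99021 was present for a further 24 hours. The same lines were also profiled in 12 ng/mL Fgf2 without CHIR99021 (EpiLC) and in 1 uM PD0325901, a MEK inhibitor, with 3 uM CHIR99021 and 1000 U/mL LIF (ESC). The remaining arrays cover WT cells with CHIR99021 throughout, 8 WT arrays in other inhibitor media, and the lines KO (Tcf7l1-/-) and 4XKO (Tcf7-/- Tcf7l1-/- Tcf7l2-/- Lef1-/-). The labels call the replicates biological triplicates and name 1 line per genotype. The loss of the 3 factors can therefore not be told apart from any other difference between the 3XKO and WT lines. A p-value below therefore speaks of variation among cultures of these lines only.

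TCF/LEF proteins bind DNA and serve as partners of beta-catenin, the effector of Wnt signalling. Without a signal they hold target genes down together with Groucho/TLE co-repressors. Gsk3 marks beta-catenin for destruction, so its inhibition lets beta-catenin build up and reach these factors. In mouse ES cells Tcf7l1 is known mainly as a repressor of naive pluripotency genes, whereas Tcf7, Tcf7l2 and Lef1 are better known for activating Wnt targets. EpiLC are ES cells that have left the naive state of the preimplantation embryo for a formative state close to the early postimplantation epiblast.

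Levels are the deposited array intensities, which have no absolute unit. Differences are log2 values of 3XKO minus WT with their standard error (SE) from a fit of 39 arrays in limma, and a probe was called at an adjusted p below 0.05 (Benjamini-Hochberg over all probes). A signal counted as measured above 13.6, the size of the lowest negative intensity, and 44.5% to 44.6% of the probes of an array passed it. Array correlations over the 6785 probes used were 0.988 to 0.993 within 3XKO EpiLC+CH and 0.990 to 0.993 within WT EpiLC+CH, and 0.942 to 0.954 between the lines. RNA came from whole cultures, in which fewer cells of a type and less RNA per cell cannot be told apart.

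The deleted genes were read first. Lef1 gave 13.2, 14.3 and 20.6 in the 3 arrays of 3XKO EpiLC+CH, against 96.8, 148.6 and 126.6 in WT EpiLC+CH. The groups did not overlap, and the difference was -2.96 ± 0.31 (SE, adjusted p = 2.4e-08). Tcf7l2 was dim in both lines, at 34.6 ± 5.36 in 3XKO EpiLC+CH and 29.4 ± 5.06 in WT EpiLC+CH (SD, n = 3 each), and was not called (adjusted p = 0.462). Tcf7 had no probe named for it alone. Which exons were deleted is not stated, and a probe outside the deleted stretch says nothing about the deletion. Tcf7l1, the factor that the 3XKO line keeps, averaged 2103 ± 253 in 3XKO EpiLC+CH and 1825 ± 94.7 in WT EpiLC+CH (SD, n = 3 each). It was not called (0.20 ± 0.10, adjusted p = 0.225). Tcf7l1 lies on chromosome 6, and with the chromosome medians described below taken off its difference was 0.46 and called (adjusted p = 0.00161). As to the labelled cell type, the general pluripotency genes Pou5f1, Sall4, Lin28a, Utf1 and Tdgf1 were measured on all 6 arrays. These genes are shared by naive and epiblast-like cells and do not tell them apart. Naive and formative genes, which could, are described below.

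Of the 25697 probes, 2302 (8.96%) were higher and 2223 (8.65%) lower in 3XKO EpiLC+CH than in WT EpiLC+CH, 17.6% in all. Taking the brightest probe of each of 16590 genes, 1683 genes (10.1%) were higher, 1590 (9.58%) were lower (19.7% in all), and the median difference over all genes was 0. These shares of all genes stand beside the gene groups below, but 7547 of the 16590 genes lay below the limit on all 6 arrays. Over the 5084 genes with a mean intensity above 100, 22.8% were called higher and 19.4% lower. Lists of mostly measured genes are better set beside these larger shares. No list was tested against either. All 3 arrays of 3XKO EpiLC+CH lay above all 3 of WT EpiLC+CH for 15.8% of the genes and below them for 15.3%. Of the named genes called with several probes, 60 in all, 18 had every probe called in the same direction and 0 had a probe called in the opposite one, the others holding probes that were not called. Of 159 named genes called, 42 lost the call when only the 6 arrays set the spread. These included Notum, Pygo1, Tle4, Tcl1, Krt8, Krt18, Lin28a, Sall4, Lefty2, Id1, Etv5, Il6st, Socs2, Cish, Tpi1, Ldha, Pdk1, Egln3, Cdh1, Sparc, Itga5, Nid2, Cldn3 and Hes6. Leaving out 1 array cost 35 genes their call in at least 1 case, among them Cdx1, Ccnd1, Dnmt3b, Grhl2, Ddit3, Nupr1, Nrcam, Igsf1, Dab2, Dpysl5, Cish, Egln3 and Gapdh.

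Direct Wnt/beta-catenin targets split in both directions. Of 20 genes measured, 4 were lower (Axin2, Sp8, Nkd2 and Dkk4), 3 were higher (Notum, Cdx1 and Ccnd1) and 13 were not called, 7 of them below the limit on all 6 arrays. The median was -0.39, and it was -0.57 over the 9 genes above the limit in a whole group. Over all genes 10.1% were higher and 9.58% lower, and over those with a mean intensity above 100, 22.8% and 19.4%. Axin2, which encodes a scaffold of the beta-catenin destruction complex and is the most widely used Wnt target, gave 159.0, 154.2 and 158.4 in 3XKO EpiLC+CH, against 213.9, 254.9 and 234.1 in WT EpiLC+CH. The ranges did not overlap, and the level was 1.49-fold lower in 3XKO (-0.57 ± 0.15, adjusted p = 0.00587). Dkk4, a secreted Wnt inhibitor, gave 14.8, 13.9 and 11.7 in 3XKO EpiLC+CH, against 83.6, 82.8 and 89.1 in WT EpiLC+CH. The arrays of 3XKO stood at the background limit, which 2 of them passed, and the difference of -2.67 ± 0.48 was called (adjusted p = 0.000113). Sp5, which encodes a zinc-finger factor that acts in Wnt feedback, gave 644.7, 494.0 and 531.3 in 3XKO EpiLC+CH, against 983.5, 833.2 and 1147.2 in WT EpiLC+CH. Its ranges did not overlap, yet the difference of -0.82 ± 0.37 was not called (adjusted p = 0.14). The SE pools the spread of all 39 arrays, among them EpiLC arrays on which Sp5 lay below the limit. With the floor at the limit, 5 of the 20 targets were called lower.

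The remaining called targets went both ways. Sp8, a relative of Sp5, was 2.24-fold lower (adjusted p = 0.00579), and Nkd2, an inhibitor of Dishevelled, was 2.31-fold lower (adjusted p = 0.00585). Notum, an enzyme that removes the lipid from Wnt proteins, gave 83.7, 76.4 and 63.2 in 3XKO EpiLC+CH, against 46.2, 47.1 and 53.3 in WT EpiLC+CH. It was higher on all 3 arrays of 3XKO (0.60 ± 0.13, adjusted p = 0.000699). Cdx1, a homeobox gene, was 2.18-fold higher (adjusted p = 0.0361), and Ccnd1, the gene of cyclin D1, was 1.20-fold higher (adjusted p = 0.0362). Tnfrsf19, a TNF receptor family gene, was close in both lines at 299 ± 21.9 in 3XKO EpiLC+CH and 253 ± 33.6 in WT EpiLC+CH (SD, n = 3 each, adjusted p = 0.443). Lgr5, Rnf43, Znrf3, Dkk1 and Sox9 were not measured above the limit in either whole group.

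The promoters of Axin2 and Sp5 are shown because both genes are Wnt targets whose WT and 3XKO levels separated without overlap. Axin2 was called, whereas Sp5 was not called and was chosen after its values were seen. The sequences are the 250 bases before each gene's start in RefSeq (build GRCm38.p6), with the TCF/LEF core motif CTTTGAT in capitals where it occurs on either strand. The Axin2 stretch is chr11:108920099-108920348 and the Sp5 stretch chr2:70474673-70474922, both on the plus strand.
Axin2: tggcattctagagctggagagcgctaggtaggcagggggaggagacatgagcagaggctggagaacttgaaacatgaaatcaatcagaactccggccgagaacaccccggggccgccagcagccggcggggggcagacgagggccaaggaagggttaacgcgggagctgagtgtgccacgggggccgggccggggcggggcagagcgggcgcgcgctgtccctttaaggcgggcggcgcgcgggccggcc
Sp5: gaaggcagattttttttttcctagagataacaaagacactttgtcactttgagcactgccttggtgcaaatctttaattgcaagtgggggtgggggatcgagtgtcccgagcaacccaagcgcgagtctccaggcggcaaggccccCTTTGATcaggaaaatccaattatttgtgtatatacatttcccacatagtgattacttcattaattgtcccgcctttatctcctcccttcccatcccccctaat
The Sp5 stretch held the motif once, from base 147, and the Axin2 stretch held no match. Over windows that also took in the first 50 bases of the transcript, 3.73% of 32851 RefSeq promoters held the motif on either strand. The share was 2.80% of 1395 genes called higher and 2.95% of 1287 called lower, beside 3.80% of all 13337 genes on the array with a window. Among the Wnt targets, 3 of the 11 with a window searched held it: Sp5, Tnfrsf19 and Mmp7. A match is a description of these letters, not of binding.

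Of 42 measured genes that carry or receive the Wnt signal, 4 were higher and 4 lower, and the median was -0.22. These counts are near the shares of all genes, 10.1% higher and 9.58% lower. Fzd7, a Wnt receptor gene on chromosome 1, gave 1292.3, 1327.2 and 1706.9 in 3XKO EpiLC+CH, against 776.1, 786.5 and 682.8 in WT EpiLC+CH. Every array of 3XKO lay above every array of WT (0.94 ± 0.11, adjusted p = 2.74e-07), and 0.42 was left when the chromosome medians described below were taken off. The co-repressor genes Tle1 (1.58-fold, adjusted p = 4.03e-05) and Tle4 (1.17-fold, adjusted p = 0.0406) were higher, as was Porcn, the enzyme that attaches lipid to Wnt proteins (1.33-fold, adjusted p = 0.00179). Wnt5b, a ligand of the non-canonical branch, was 2.49-fold lower (adjusted p = 0.00122). Pygo1, which encodes a beta-catenin co-activator, was lower (adjusted p = 0.000541). It passed the limit on 2 arrays of 3XKO EpiLC+CH, and the size of its difference depended on the floor, 3.50-fold as fitted and 2.18-fold with the floor at the limit. Fzd2 and Wnt4 were also called lower, but Fzd2 passed the limit on 1 array of 3XKO EpiLC+CH and Wnt4 on none of the 6, so the size of their difference is not known.

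Naive pluripotency genes were higher in 3XKO EpiLC+CH. Of 17 measured, 12 were higher, 0 were lower and 5 were not called, with a median of 1.14 beside 0 for all genes. Klf2, a Krüppel-like factor gene of the naive network, gave 1246.4, 1522.3 and 1483.5 in 3XKO EpiLC+CH, against 499.7, 470.0 and 572.0 in WT EpiLC+CH. The lowest 3XKO array lay above the highest WT array by more than the spread within either group (1.46 ± 0.09, adjusted p = 1.96e-12). Klf4, of the same family, gave 318.5, 375.1 and 266.5 in 3XKO EpiLC+CH, against 114.5, 87.9 and 150.9 in WT EpiLC+CH (2.76-fold, adjusted p = 1.8e-05). Klf5 was 1.47-fold higher (adjusted p = 3.74e-05).

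The nuclear receptor gene Esrrb gave 5170.4, 5409.4 and 4625.2 in 3XKO EpiLC+CH, against 3050.3, 2719.7 and 2766.0 in WT EpiLC+CH, without overlap (0.83 ± 0.06, adjusted p = 8.17e-11). Nr5a2, another nuclear receptor gene, on chromosome 1, gave 639.3, 607.4 and 656.2 in 3XKO EpiLC+CH, against 208.7, 246.7 and 200.9 in WT EpiLC+CH. The groups lay far apart (1.54 ± 0.16, adjusted p = 2.15e-08), and 1.02 was left with the chromosome median taken off. Tbx3, a T-box factor gene that sustains the naive state, showed the largest difference of the 15 list members above the limit in a whole group, with 203.9, 286.1 and 257.8 in 3XKO EpiLC+CH, against 36.1, 43.0 and 43.4 in WT EpiLC+CH (2.60 ± 0.19, adjusted p = 4.12e-11). Dppa3, a maternal factor that protects methylation marks, gave 438.2, 458.7 and 604.7 in 3XKO EpiLC+CH, against 88.5, 106.7 and 95.1 in WT EpiLC+CH, again without overlap (5.13-fold, adjusted p = 4.88e-13).

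Zfp42, the classical ES cell marker Rex1, averaged 2524 ± 251 in 3XKO EpiLC+CH and 1144 ± 93.2 in WT EpiLC+CH (SD, n = 3 each). Jam2, a junction protein gene used as a naive marker, averaged 120 ± 13.9 in 3XKO EpiLC+CH and 33.1 ± 11.4 in WT EpiLC+CH. Tcl1, an Akt co-activator gene, averaged 462 ± 119 in 3XKO EpiLC+CH and 193 ± 42.4 in WT EpiLC+CH. All 3 were called (adjusted p = 7.39e-11 for Zfp42, 0.000752 for Jam2 and 8.4e-07 for Tcl1), along with Gbx2 (2.43-fold) and Fbxo15 (1.95-fold). Nanog, the homeobox factor gene of the core network, was the exception among the bright members. It gave 2696.2, 2061.4 and 1792.9 in 3XKO EpiLC+CH, against 1968.6, 2083.5 and 2840.7 in WT EpiLC+CH, so the ranges overlapped almost fully (-0.08 ± 0.18, adjusted p = 0.95). Fgf4 was not called either (adjusted p = 1), nor was Pecam1 (0.53 ± 0.21, adjusted p = 0.0812), and Prdm14 and Nr0b1 lay below the limit.

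**Figure D1:**
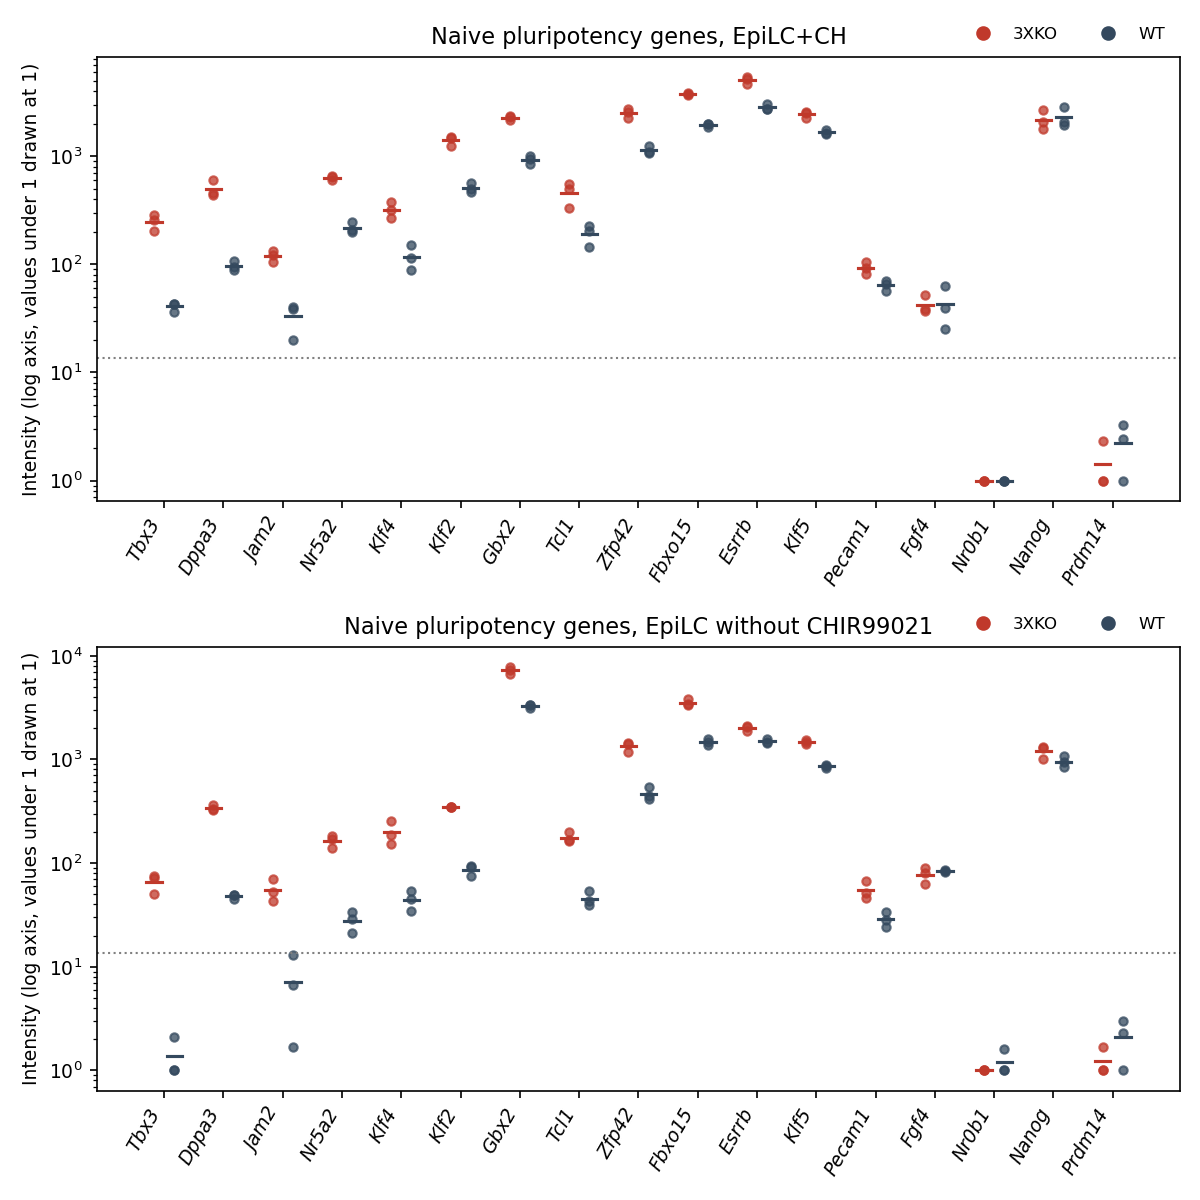
Intensity (log axis) of the 17 measured naive pluripotency genes in EpiLC+CH (upper panel) and EpiLC (lower panel), with a point per array, 3XKO left of WT, a bar at each group mean and a dotted line at the limit of 13.6. In EpiLC+CH the 12 called genes, Tbx3 and Klf2 among them, have all 3 arrays of 3XKO above those of WT, Nanog has overlapping arrays, and Nr0b1 and Prdm14 lie under the limit.

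Markers of the formative state were less uniform. Of 18 measured, 5 were lower, 1 was higher and 12 were not called, with a median of -0.21, or -0.42 over the 13 above the limit in a whole group. Cldn6, a tight-junction gene of epiblast cells, gave 372.5, 330.0 and 399.8 in 3XKO EpiLC+CH, against 1443.4, 1585.7 and 1368.7 in WT EpiLC+CH. It was 3.99-fold lower with no overlap (adjusted p = 1.22e-13). The epithelial keratin genes Krt18 (2.64-fold, adjusted p = 0.00387) and Krt8 (1.44-fold, adjusted p = 0.00299), and Igfbp3, which encodes an IGF-binding protein (2.54-fold, adjusted p = 0.0054), were lower as well.

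The best-known formative genes differed little. Fgf5 gave 298.3, 234.1 and 194.3 in 3XKO EpiLC+CH, against 345.9, 282.7 and 336.6 in WT EpiLC+CH, with overlapping ranges (-0.43 ± 0.58, adjusted p = 0.782). Otx2, the homeobox factor gene of the epiblast, averaged 1445 ± 38.8 in 3XKO EpiLC+CH and 1654 ± 198 in WT EpiLC+CH (SD, n = 3 each, adjusted p = 0.163). Dnmt3b, the de novo DNA methyltransferase gene, was called by a small margin, at 8993 ± 503 in 3XKO EpiLC+CH and 10590 ± 118 in WT EpiLC+CH (-0.24 ± 0.08, adjusted p = 0.0463). Pou3f1 was not called (adjusted p = 0.707). Grhl2, an epithelial factor gene, was the member that was higher (1.32-fold, adjusted p = 0.0137).

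Among genes shared by naive and formative cells, 2 of 12 were higher and 2 lower (median 0.04). The shares were 10.1% and 9.58% over all genes, and 22.8% and 19.4% over those with a mean intensity above 100. Pou5f1, which encodes Oct4, gave 1500.4, 1192.1 and 1733.0 in 3XKO EpiLC+CH, against 2023.3, 2651.4 and 2023.3 in WT EpiLC+CH. All WT arrays were above all 3XKO arrays (1.52-fold lower in 3XKO, adjusted p = 0.00411), but the call was lost when only the 6 arrays set the spread. Lin28a, a blocker of let-7 maturation, was 1.53-fold lower (adjusted p = 0.0141). Trim28, a co-repressor that silences retroelements, was 1.53-fold higher (adjusted p = 8.97e-08), and Sall4 was 1.27-fold higher (adjusted p = 0.0367). Sox2 averaged 137 ± 29.8 in 3XKO EpiLC+CH and 137 ± 13.4 in WT EpiLC+CH (SD, n = 3 each) and was not called (adjusted p = 1).

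Most primitive streak and mesendoderm genes were dim in both lines. Of 19 measured, 2 were lower, 0 were higher and 7 lay below the limit on all 6 arrays. With the floor at the limit 2 were higher. Evx1, a homeobox gene of the posterior streak, gave 24.9, 35.4 and 37.6 in 3XKO EpiLC+CH, against 67.0, 71.5 and 77.0 in WT EpiLC+CH (2.23-fold lower, adjusted p = 0.00139). Lefty2, a Nodal antagonist gene on chromosome 1, gave 100.9, 149.6 and 60.2 in 3XKO EpiLC+CH, against 183.7, 202.1 and 194.8 in WT EpiLC+CH. Both fell without overlap of the arrays, Lefty2 by 1.00 ± 0.20 on the log2 scale (adjusted p = 0.000363). Nodal itself averaged 493 ± 92.0 in 3XKO EpiLC+CH and 405 ± 44.8 in WT EpiLC+CH (SD, n = 3 each), and Fgf8 averaged 59.7 ± 20.3 in 3XKO EpiLC+CH and 62.5 ± 9.05 in WT EpiLC+CH. Neither was called (adjusted p = 0.163 and 1).

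The BMP pathway and its Id target genes leaned higher, with 5 of 13 higher, 2 lower and a median of 0.87. Bmp4, the ligand gene, gave 304.1, 323.9 and 303.7 in 3XKO EpiLC+CH, against 95.5, 74.0 and 82.8 in WT EpiLC+CH. The 3 arrays of each line were tight and the difference was 3.71-fold (adjusted p = 3.6e-14). Id1 and Id3, inhibitors of helix-loop-helix factors and classical BMP targets, were 2.07-fold and 2.57-fold higher (adjusted p = 0.00501 and 0.000324). Bmp7, another ligand gene, went the opposite way at 43.3 ± 4.97 in 3XKO EpiLC+CH and 119 ± 12.7 in WT EpiLC+CH (SD, n = 3 each, adjusted p = 5.42e-05). Id4 and Smad6 were called close to the background limit and lost the call with the floor set there. Gata2 was called from values below the limit, and no difference was left with that floor. With that floor 4 members of the list were higher and 1 lower. When the compared arrays alone set the spread, 2 were higher and 1 lower, and Id1, Id4, Gata2 and Smad6 lost their call.

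Among genes that report FGF/ERK signalling, 4 of 17 were lower and 1 was higher (median -0.21). Egr1, an immediate early gene, gave 141.1, 132.7 and 140.2 in 3XKO EpiLC+CH, against 681.2, 703.6 and 716.8 in WT EpiLC+CH. The arrays of each line were nearly alike and the lines 5.08-fold apart (adjusted p = 5.68e-10). Ier3, another early response gene, was 3.59-fold lower (adjusted p = 3.38e-07). The feedback inhibitor genes Spred1 (1.45-fold, adjusted p = 1.11e-05) and Dusp6 (1.30-fold, adjusted p = 0.000338) were lower. Etv5, an Ets factor gene downstream of ERK, was higher at 1011 ± 186 in 3XKO EpiLC+CH and 648 ± 32.6 in WT EpiLC+CH (SD, n = 3 each, adjusted p = 0.000102).

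Genes of the LIF/Stat3 pathway split, with 2 of 11 higher and 3 lower (median -0.01). Il6st, the gene of the shared receptor subunit gp130, was 1.83-fold higher (adjusted p = 0.00193), and Socs2 was 1.21-fold higher (adjusted p = 0.0131). Junb, a subunit gene of AP-1, gave 10.9, 10.7 and 16.6 in 3XKO EpiLC+CH, against 63.1, 76.4 and 62.3 in WT EpiLC+CH, so 1 array of 3XKO passed the limit. It was lower (adjusted p = 8.03e-07), with a difference of -2.43 as fitted and -2.20 with the floor at the limit. Pim3 and Cish were lower by 1.36-fold and 1.77-fold (adjusted p = 0.00606 and 0.013).

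Glycolysis and hypoxia genes were lower. Of 16 measured, 11 were lower, 1 was higher and 4 were not called, with a median of -0.60, and 6 were lower when only the 6 compared arrays set the spread. Slc2a1, the glucose transporter gene, gave 3617.5, 2873.3 and 2312.8 in 3XKO EpiLC+CH, against 6096.3, 5328.7 and 5964.7 in WT EpiLC+CH. The groups did not overlap (2.01-fold lower, adjusted p = 4.89e-06). Aldoc, an aldolase gene, gave 30.1, 31.5 and 23.8 in 3XKO EpiLC+CH, against 127.8, 132.2 and 154.5 in WT EpiLC+CH (4.87-fold lower, adjusted p = 5.21e-11). Pfkl, a phosphofructokinase gene, was 2.08-fold lower (adjusted p = 7.52e-06), whereas its relative Pfkp was 1.43-fold higher (adjusted p = 0.00666). The hypoxia-responsive genes Vegfa (2.53-fold, adjusted p = 7.84e-06), Pdk1 (1.37-fold, adjusted p = 0.00144) and Egln3 (1.87-fold, adjusted p = 0.0166) were lower.

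Among the later enzymes, Tpi1 and Aldoa were 1.92-fold and 1.68-fold lower and Ldha 1.33-fold lower (adjusted p = 1.31e-05, 0.000394 and 0.0102). Tpi1, Gapdh and Hk2 lie on chromosome 6, whose genes were lower as a whole in the 3XKO line. With the chromosome median taken off, Tpi1 remained lower by 0.67, while Gapdh (-0.21 as measured, adjusted p = 0.034) and Hk2 (-0.19, adjusted p = 0.0353) turned to 0.052 and 0.072 and were no longer called.

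Among genes of the integrated stress response, 7 of 14 were lower, 2 were higher and 5 were not called (median -0.64). Of the 7, Asns, an asparagine synthetase gene on chromosome 6, was not called with the chromosome medians taken off (-0.084, adjusted p = 0.758). Chac1, a glutathione-degrading enzyme gene induced by Atf4, gave 1503.0, 1794.4 and 1408.6 in 3XKO EpiLC+CH, against 3684.5, 3715.1 and 3463.3 in WT EpiLC+CH (2.32-fold lower, adjusted p = 5.14e-06). Vldlr, a lipoprotein receptor gene, was 3.29-fold lower, Ddit4, an mTOR inhibitor gene, 1.90-fold, and Phgdh, the first enzyme of serine synthesis, 1.68-fold (adjusted p = 5.56e-07, 0.00016 and 8.94e-05). Ddit3, the gene of the stress factor CHOP, went the opposite way at 416 ± 43.7 in 3XKO EpiLC+CH and 266 ± 26.2 in WT EpiLC+CH (SD, n = 3 each, adjusted p = 0.021), and Nupr1 was 1.42-fold higher (adjusted p = 0.0397).

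Of 11 p53 target genes, 4 were higher and 1 was lower (median 0.22). Phlda3, an Akt inhibitor gene, was 2.03-fold higher (adjusted p = 8.21e-08) and Aen, a nuclease gene, 1.79-fold higher (adjusted p = 1.61e-05). Phlda3 and Ephx1 lie on chromosome 1; with its median taken off Phlda3 remained called at 0.50, and Ephx1 was not called at 0.30. Among 12 G1 cyclin and Cdk inhibitor genes, 2 were higher and 2 lower (median -0.22). Ccnd2, the gene of cyclin D2, gave 109.7, 109.3 and 97.1 in 3XKO EpiLC+CH, against 809.4, 877.0 and 583.7 in WT EpiLC+CH (7.09-fold lower, adjusted p = 4.2e-08). Cdkn1c, the gene of the Cdk inhibitor p57, gave 204.1, 180.3 and 185.9 in 3XKO EpiLC+CH, against 661.3, 615.3 and 564.0 in WT EpiLC+CH. Both were lower on all 3 arrays (Cdkn1c 3.23-fold, adjusted p = 3.16e-10), and Ccnd3 was 1.28-fold higher (adjusted p = 0.000183).

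The largest decreases among genes measured on all 6 arrays held several contractile genes. Acta1, the skeletal muscle actin gene, gave 16.7, 16.7 and 15.2 in 3XKO EpiLC+CH, against 456.0, 391.2 and 377.8 in WT EpiLC+CH. The 3XKO arrays stood just above background, 25.2-fold below WT (adjusted p = 1.1e-06). Pdlim3, which encodes an actin-associated LIM protein, was 11.3-fold lower (adjusted p = 8.24e-06), and Tpm2, a tropomyosin gene, was 5.01-fold lower (adjusted p = 8.42e-08). Acta2, the smooth muscle actin gene, averaged 845 ± 32.4 in 3XKO EpiLC+CH and 3485 ± 127 in WT EpiLC+CH (SD, n = 3 each, adjusted p = 4.5e-05). Myl3, a myosin light chain gene, was below the limit on all 3 arrays of 3XKO and at least 3.59-fold lower (adjusted p = 1.7e-05). Mylpf, another myosin light chain gene, went the opposite way and was 6.57-fold higher (adjusted p = 1.52e-15).

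The other large decreases were Epha1, an ephrin receptor gene (8.58-fold, adjusted p = 0.000358), Etv2, an Ets factor gene of the blood and vessel lineage (5.27-fold, adjusted p = 3.64e-12), and Snai3, a Snail family gene (5.63-fold, adjusted p = 1.6e-12). Phlda2, an imprinted gene best known from placenta, gave 227.2, 130.8 and 159.2 in 3XKO EpiLC+CH, against 745.8, 687.8 and 713.4 in WT EpiLC+CH (4.26-fold lower, adjusted p = 1.65e-09). Nrcam, Has2, Cntnap2, Igsf1 and Tmem54 completed the 15 largest, between 4.22-fold and 5.43-fold lower. Among genes below the limit on all 3 arrays of 3XKO only, Cldn3, a claudin gene, was at least 4.46-fold lower, Rab25, a GTPase gene of epithelial recycling, at least 4.06-fold, and Gjb2, a gap junction gene, at least 5.25-fold. Dpysl5 was at least 3.32-fold lower, with an adjusted p of 0.0493.

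Adhesion genes followed with Cdh1, the E-cadherin gene, at 388 ± 70.9 in 3XKO EpiLC+CH and 756 ± 121 in WT EpiLC+CH (SD, n = 3 each, 1.96-fold lower, adjusted p = 0.000138). Cdh3, the P-cadherin gene, was 2.87-fold lower (adjusted p = 1.7e-07). In the list of 14 basement membrane and adhesion genes, 6 were higher and 3 lower (median -0.12). The higher ones were matrix genes and an integrin: Nid1 (2.62-fold), Lama1 (1.84-fold), Lamc1 (1.73-fold), Sparc (1.40-fold), Itga5 (1.39-fold) and Nid2 (1.26-fold). Their adjusted p ran between 4.2e-08 for Nid1 and 0.00175 for Nid2. Lamc1 lies on chromosome 1 and was not called once that chromosome's median was taken off (0.27, adjusted p = 0.0659).

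**Figure D2:**
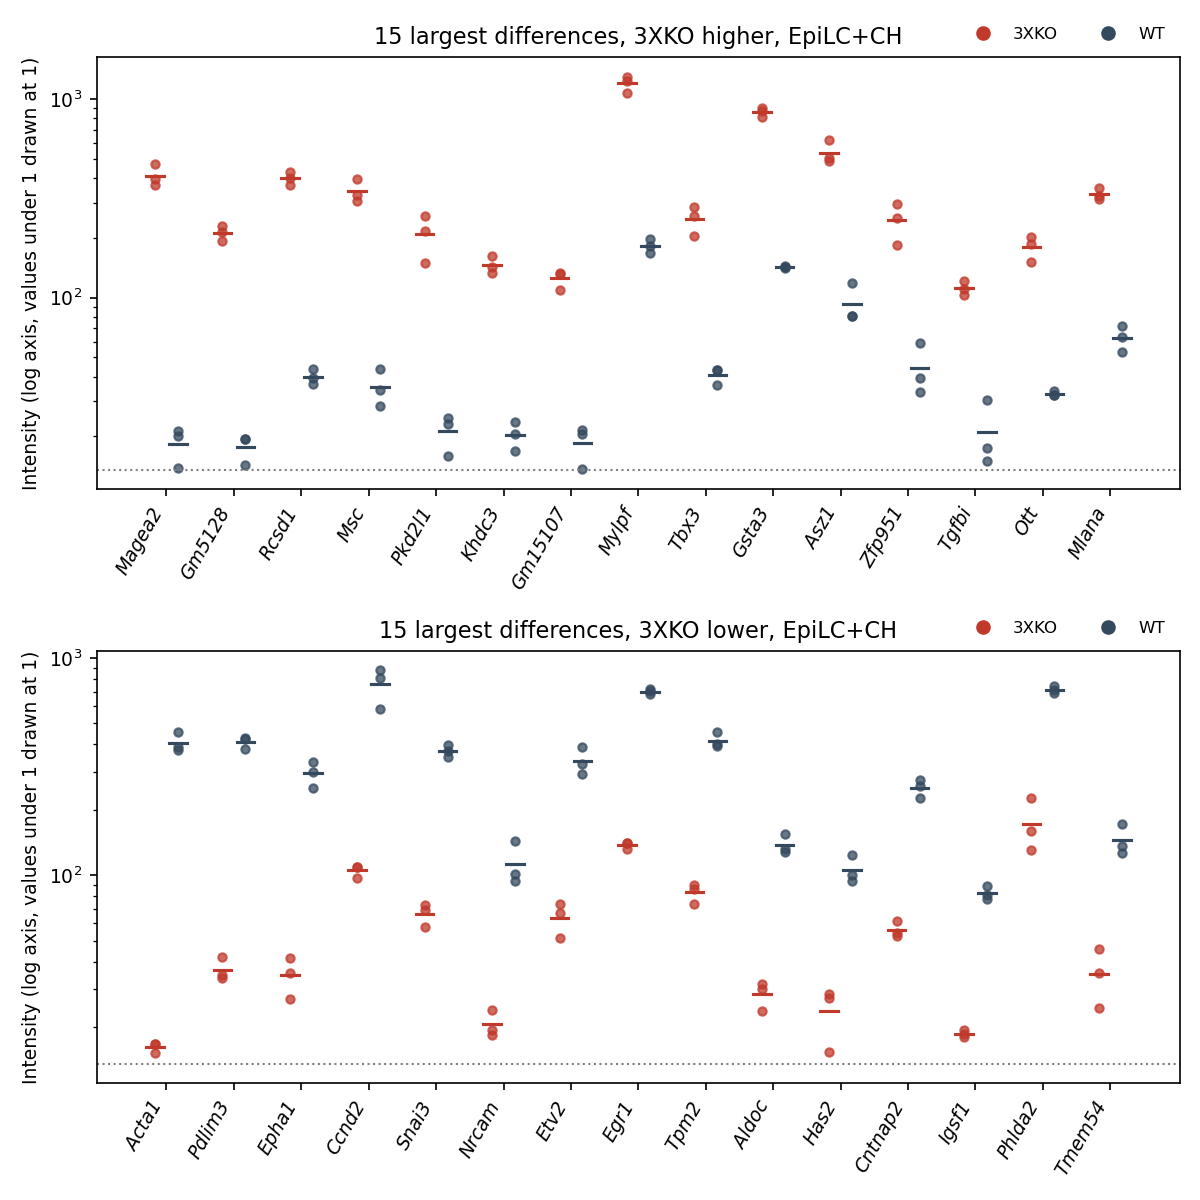
Intensity (log axis) of the 15 largest increases (upper panel) and 15 largest decreases (lower panel) among genes measured on all 6 arrays, with a point per array, a bar at each group mean and a dotted line at the limit of 13.6. In all 30 genes the 3 arrays of 3XKO EpiLC+CH lie apart from the 3 of WT EpiLC+CH.

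The largest increases held germline genes of the X chromosome. Magea2, of a cancer-testis family, gave 366.9, 470.1 and 392.9 in 3XKO EpiLC+CH, against 13.8, 20 and 21.2 in WT EpiLC+CH, where it lay just above background (22.6-fold, adjusted p = 4.94e-16). Magea5 and Mageb4, which lay below the limit on all WT arrays, were at least 17.2-fold and 6.74-fold higher (adjusted p = 3.84e-13 and 1.03e-13). Ott, an X-linked gene known from testis, was 5.43-fold higher (adjusted p = 5.17e-05), and the X-linked models Gm5128 and Gm15107 were 12.1-fold and 6.81-fold higher. Probes of near-identical family members can share signal, so values for single Magea and Ott genes are uncertain.

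Outside the X chromosome, Asz1, a piRNA pathway gene on chromosome 6, gave 501.9, 623.5 and 485.0 in 3XKO EpiLC+CH, against 117.8, 80.7 and 80.4 in WT EpiLC+CH (5.83-fold, adjusted p = 8.47e-15). Dazl, an RNA-binding protein gene of germ cells, gave 636.1, 752.5 and 497.1 in 3XKO EpiLC+CH, against 167.4, 144.1 and 187.1 in WT EpiLC+CH (3.75-fold, adjusted p = 1.41e-11). Khdc3, a maternal-effect gene of the oocyte, was 7.22-fold higher (adjusted p = 5.94e-14). Of the 14 germline and methylation-sensitive genes, 4 were higher, Asz1, Dazl, Stk31 and Taf7l, and Tuba3a was lower. The list's median was 0, and 6 members lay below the limit on all 6 arrays. Stk31 and Taf7l lost their call when only the 6 arrays set the spread. Eif1a was the called gene among 7 of the 2-cell-like list, with 1.17-fold (adjusted p = 0.0104). It lost the call with the 6 arrays alone and with the chromosome medians described below taken off (0.15, adjusted p = 0.108).

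The remaining large increases had varied roles. They were Pkd2l1, a channel gene (9.71-fold, adjusted p = 7.99e-15), Tgfbi, a matrix protein gene (5.56-fold, adjusted p = 2.81e-11), Mlana, a melanosome gene (5.31-fold, adjusted p = 2.7e-14), and the zinc-finger gene Zfp951 (5.61-fold, adjusted p = 2.17e-10). Among genes below the limit on all WT arrays, Aox3, an aldehyde oxidase gene, was at least 10.9-fold higher, Aoah at least 8.51-fold and Cabs1 at least 7.67-fold. Among 16 Notch and early neural genes, 2 were higher and 1 lower. Sox21, an HMG-box factor gene, averaged 408 ± 45.8 in 3XKO EpiLC+CH and 115 ± 2.58 in WT EpiLC+CH (SD, n = 3 each, adjusted p = 8.47e-15), whereas Hes6, on chromosome 1, was 1.68-fold lower (adjusted p = 0.00032).

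Markers of other cell types moved in part with the line. Of 10 extraembryonic endoderm markers, 3 were higher (2 higher and 1 lower with the floor at the limit) and the summed intensity was 248.1 to 280.3 in 3XKO EpiLC+CH, against 136.3 to 151.2 in WT EpiLC+CH. Gata6, a factor gene of that lineage, gave 63.5, 102.2 and 93.6 in 3XKO EpiLC+CH, against 18.1, 12.6 and 18.4 in WT EpiLC+CH (5.26-fold, adjusted p = 2.08e-07; 1 array of WT lay below the limit), and Dab2 was 1.87-fold higher (adjusted p = 0.0101). Pdgfra was at least 1.19-fold higher and lost its call with the floor at the limit (0.25, adjusted p = 0.255), while Afp, Ttr, Apoa1, Gata4 and Sox7 lay below the limit on all 6 arrays. Of 9 trophoblast markers 1 was called (3 were higher with the floor at the limit), Tfap2c, also expressed in naive ES cells (1.65-fold higher, adjusted p = 2.78e-07), and it made up most of the sum, 2080.7 to 2202.1 in 3XKO EpiLC+CH and 1173.6 to 1397.9 in WT EpiLC+CH. Tpbpa, Esx1, Hand1 and Elf5 lay below the limit. The 10 fibroblast markers summed to 1453.8 to 1496.5 in 3XKO EpiLC+CH and 3802.3 to 4035.4 in WT EpiLC+CH, nearly all of it Acta2, which was lower, and Vim, which was higher. Without these 2 genes the sums were 102.3 to 111.0 in 3XKO EpiLC+CH and 107.7 to 161.7 in WT EpiLC+CH, and Postn, Col3a1, Col1a1, Dcn, Pdgfrb and Lum lay below the limit. The part of other cell types in the results above was not tested.

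**Figure D3:**
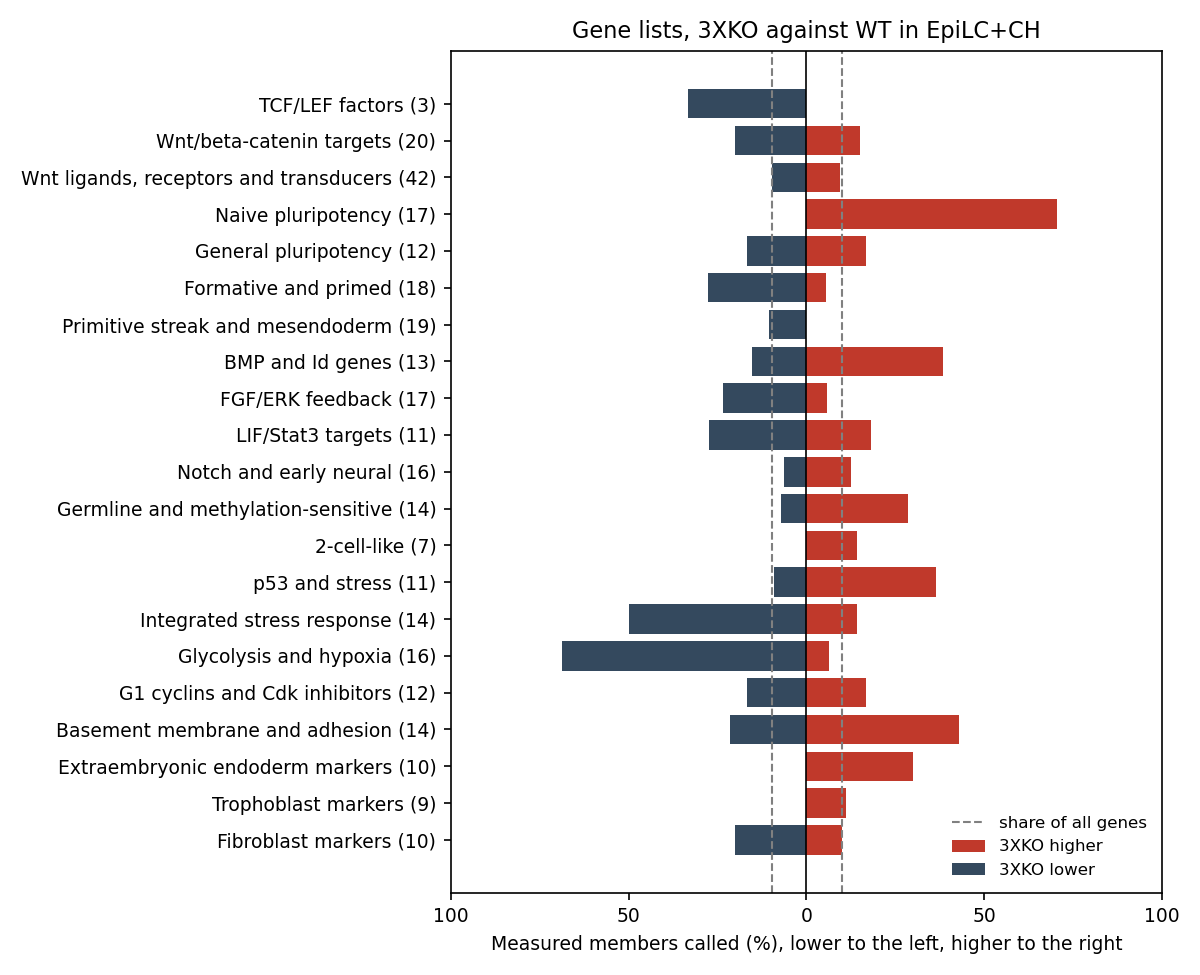
Share of the measured members of each list (number in brackets, horizontal axis in percent) called higher (right) or lower (left) in 3XKO EpiLC+CH than in WT EpiLC+CH, with dashed lines at the shares of all genes, 10.1% higher and 9.58% lower. Naive pluripotency genes have the longest bar to the right (12 of 17) and glycolysis and hypoxia genes the longest to the left (11 of 16). Over genes with a mean intensity above 100, which the lines do not show, the shares were 22.8% higher and 19.4% lower.

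The line also differed by chromosome. Over genes with a mean intensity above 100, the 243 genes of chromosome 1 had a median of 0.55 (1.46-fold) in 3XKO EpiLC+CH minus WT EpiLC+CH. The difference was positive in 218 of them (89.7%), and 166 (68.3%) were called higher and 11 lower, beside 20.5% called higher among the 4841 such genes elsewhere and 22.8% higher and 19.4% lower over all 5084. Array by array, the chromosome median relative to the WT mean was 0.56, 0.54 and 0.54 in 3XKO EpiLC+CH, against 0.01, 0.00 and -0.01 in WT EpiLC+CH. It was 0.50 in EpiLC and 0.50 in ESC. In EpiLC+CH of the KO and 4XKO lines, set against the same WT arrays, it was 0.02 and 0.06.

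The shift covered the chromosome. With its genes put in order and cut into 10 parts of 24 or 25 genes, the part medians ran between 0.39 and 0.63 in EpiLC+CH, 0.36 and 0.66 in EpiLC and 0.36 and 0.63 in ESC. An exact two-sided permutation test of the 3 against 3 arrays gave p = 0.1, the smallest that this design allows. With labels permuted within the 3 conditions, 9 against 9 arrays, p was 0.00025, again the smallest possible (0.001 adjusted over 20 chromosomes). As 11 chromosomes passed 0.05 in that test, the size of the shift rather than its p sets chromosome 1 apart from the 18 chromosomes other than 1 and 6, whose medians lay between -0.09 and 0.06. Chromosome 1 was chosen with its shift already known from earlier results of these data. The p-values for it are thus no independent support.

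Chromosome 6 was the second that stood apart, in the opposite direction. Its 260 genes had a median of -0.29 in EpiLC+CH, -0.24 in EpiLC and -0.21 in ESC, and 132 were called lower and 19 higher in EpiLC+CH. In 10 parts of 26 genes, the part medians ran between -0.39 and -0.02 in EpiLC+CH, with the value nearest 0 in the last part. In EpiLC+CH of the KO and 4XKO lines its median was 0.15 and 0.03.

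**Figure D4:**
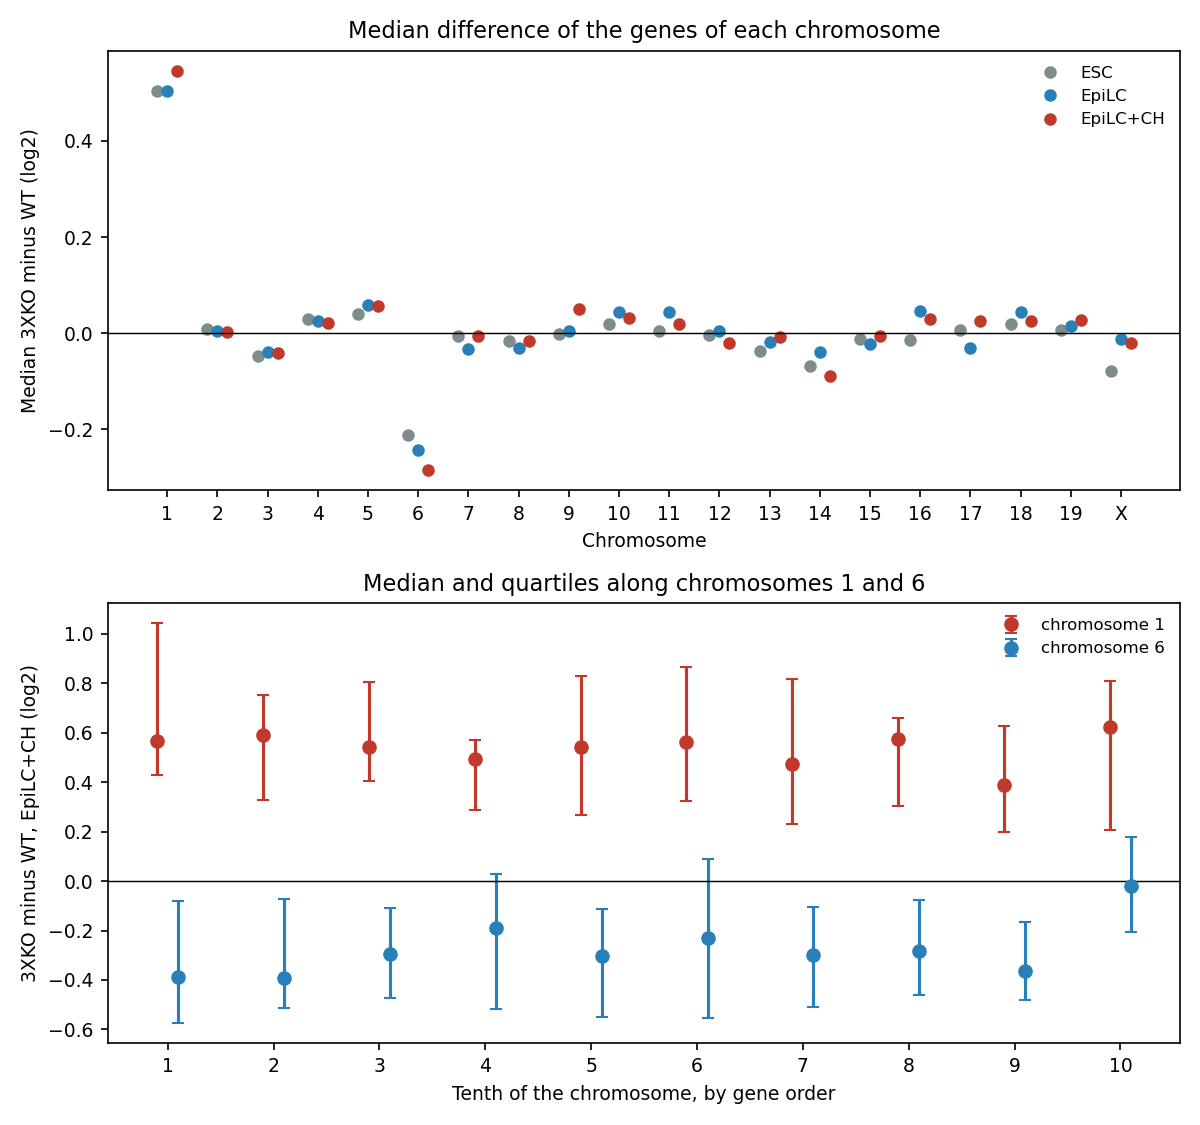
Median log2 difference of 3XKO minus WT per chromosome in ESC, EpiLC and EpiLC+CH over genes with a mean intensity above 100 (upper panel), and the median with its quartiles in 10 consecutive parts of chromosomes 1 and 6 in EpiLC+CH (lower panel). Chromosome 1 lies at 0.50 to 0.55 in the 3 conditions, chromosome 6 at -0.29 to -0.21, and the other 18 between -0.09 and 0.06.

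Single genes of chromosome 1 went well beyond its median in both directions. Rcsd1, which encodes a regulator of actin capping, gave 368.9, 430.6 and 401.4 in 3XKO EpiLC+CH, against 36.7, 43.7 and 39.4 in WT EpiLC+CH (10-fold, adjusted p = 2.44e-15). Gsta3, a glutathione transferase gene, gave 903.5, 873.4 and 811.2 in 3XKO EpiLC+CH, against 144.4, 140.5 and 142.9 in WT EpiLC+CH (6.04-fold, adjusted p = 6.01e-18). Msc, a bHLH factor gene, was 9.79-fold higher, Mrpl15, a mitochondrial ribosome gene, 5.18-fold, and Mreg, a gene of melanosome transport, 4.65-fold. These 5 kept differences of 1.70 to 2.81 with the chromosome median taken off. On the lower side stood Atf3, a stress factor gene (3.43-fold, adjusted p = 0.00985), Sertad4 (2.38-fold), Lefty2 (2.00-fold), Sft2d2 (1.94-fold) and Nenf (1.93-fold).

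Taking each chromosome's median off its brighter genes left 2128 probes higher and 2186 lower in 3XKO EpiLC+CH, and on chromosome 1 it left 48 of the 243 genes higher and 56 lower. The median taken off was that of each array over all probes of the chromosome with a mean intensity above 100. It thus differs somewhat from the gene medians given above. This setting was added after the data were seen. Among the gene lists, chromosome 1 holds 3 measured naive genes, of which Nr5a2 and Gbx2 were called. Gbx2 kept 0.76 of its 1.28.

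The same line difference was then read in EpiLC without CHIR99021, on other arrays of both lines. There 3484 genes were called (21% in all, 10.8% higher and 10.2% lower), and 2395 were shared with EpiLC+CH in the same direction, which is 73.2% of the EpiLC+CH list and 68.7% of the EpiLC list, with 9 opposite. Of 17 naive genes, 13 were higher in 3XKO EpiLC, of 16 glycolysis genes 10 were lower, and the Wnt targets gave 4 higher and 1 lower. In ESC 2534 genes were called (15.3% in all, 7.82% higher and 7.46% lower), and 1132 were shared in the same direction with EpiLC+CH (34.6% of the EpiLC+CH list and 44.7% of the ESC list), with 193 opposite. No naive gene was higher in 3XKO ESC, 2 were lower, and 1 glycolysis gene was higher and 4 lower.

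The difference between the line differences was tested directly. Between EpiLC+CH and EpiLC it was called for 178 probes (0.693%), 83 (0.323%) with a positive value and 95 (0.370%) with a negative one, and between EpiLC+CH and ESC for 2338 probes (9.10%). The number for EpiLC depended on the setting: it was 422 with the floor at the background limit and 62 when only the 12 compared arrays set the spread. Of 31 genes named here that were called for it, 29 were called with the higher floor and 14 with the compared arrays alone.

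Several Wnt pathway genes were among them. Axin2 gave 29.1, 29.3 and 30.2 in 3XKO EpiLC, against 27.3, 22.9 and 20.1 in WT EpiLC, so the lines were close without CHIR99021 (0.35, adjusted p = 0.118). Together with the values in EpiLC+CH the line difference changed by -0.92 ± 0.21 (adjusted p = 0.0326), a call that was lost with the compared arrays alone (adjusted p = 0.0546). Put as a response to CHIR99021, Axin2 rose by 2.41 in 3XKO cells and by 3.33 in WT cells on the log2 scale. Tnfrsf19 gave 51.8, 53.2 and 68.2 in 3XKO EpiLC, against 16.1, 19.5 and 17.5 in WT EpiLC, so here 3XKO started higher (1.70, adjusted p = 1.73e-08) and the line difference changed by -1.46 ± 0.25 (adjusted p = 0.00196). Porcn (-0.86 ± 0.13, adjusted p = 0.000487), the receptor gene Fzd10 (-1.26 ± 0.21, adjusted p = 0.00147) and the ligand gene Wnt6 (-1.70 ± 0.40, adjusted p = 0.0389) followed the same order, higher in 3XKO EpiLC than in WT EpiLC by 1.26, 1.44 and 1.17 (adjusted p = 2.27e-11, 1.42e-08 and 0.00275). With the compared arrays alone, Tnfrsf19 and Porcn kept their call, whereas Fzd10 (adjusted p = 0.0546) and Wnt6 (adjusted p = 0.264) lost it. Sp5 lay below the limit in EpiLC of both lines. Its change of -2.66 ± 0.52 (adjusted p = 0.00748) was -0.82 and not called with the floor at the limit.

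Naive genes with a changed line difference were Klf2 (-0.56 ± 0.13, adjusted p = 0.0433), Nr5a2 (-1.04 ± 0.23, adjusted p = 0.0213) and Esrrb (0.40 ± 0.09, adjusted p = 0.0316). Klf2 gave 351.5, 350.4 and 350.4 in 3XKO EpiLC, against 91.8, 74.6 and 93.7 in WT EpiLC. Esrrb gave 2083.5, 1886.0 and 2065.3 in 3XKO EpiLC, against 1569.6, 1435.3 and 1466.5 in WT EpiLC. The line difference of Klf2 was thus smaller with CHIR99021 and that of Esrrb larger, and the 3 calls were lost when only the 12 compared arrays set the spread (adjusted p = 0.355, 0.186 and 0.269). Tbx3 was below the limit in WT EpiLC, and its change of -3.05 ± 0.28 (adjusted p = 1.88e-07) turned to 0.36 and was not called (adjusted p = 0.821) with the floor at the limit.

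Among the 5 largest negative changes of genes measured on all 12 arrays, Ephx2, an epoxide hydrolase gene, gave 140.2, 121.8 and 146.3 in 3XKO EpiLC, against 23.6, 20 and 24.4 in WT EpiLC. With CHIR99021 it gave 338.1, 406.5 and 312.9 in 3XKO EpiLC+CH, against 234.6, 216.5 and 282.7 in WT EpiLC+CH, so the lines stood much closer (-2.06 ± 0.22, adjusted p = 2.29e-06). Zfp428 was 1.39 higher in 3XKO EpiLC and 0.31 lower in 3XKO EpiLC+CH (change -1.70 ± 0.14, adjusted p = 5.59e-08). Egr1 gave 128.3, 142.7 and 142.0 in 3XKO EpiLC, against 240.1, 223.6 and 206.9 in WT EpiLC. Its level was thus alike with and without CHIR99021 in 3XKO cells and higher with CHIR99021 in WT cells (1.65, adjusted p = 9.26e-07), which gave a change of -1.65 ± 0.28 (adjusted p = 0.00209). Pdzk1, a scaffold gene of membrane transporters, changed by -1.47 ± 0.35 (adjusted p = 0.0424), like Tnfrsf19 above.

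The largest positive changes were Exoc3l (1.42 ± 0.30, adjusted p = 0.0173), Atp1b1, a sodium pump subunit gene on chromosome 1 (1.38 ± 0.17, adjusted p = 2.97e-05), Bmp4, Dipk1b and Tdrp. Bmp4 gave 121.6, 91.2 and 124.6 in 3XKO EpiLC, against 76.7, 69.9 and 77.8 in WT EpiLC. With CHIR99021 its level rose by 1.48 in 3XKO cells (adjusted p = 1.59e-11), and the response of 0.16 in WT cells was not called (adjusted p = 0.473), a difference of 1.32 ± 0.14 (adjusted p = 2.29e-06). Atp1b1 gave 1430.6, 1315.9 and 1151.1 in 3XKO EpiLC, against 2173.7, 2300.6 and 2365.0 in WT EpiLC. It was lower in 3XKO EpiLC (-0.82, adjusted p = 9.71e-06) and higher in 3XKO EpiLC+CH (0.56, adjusted p = 0.00121), but with the chromosome medians taken off the EpiLC+CH difference was 0.045 and not called (adjusted p = 0.985). The basement membrane genes Lama1 (1.09 ± 0.14, adjusted p = 4.5e-05) and Nid1 (0.97 ± 0.21, adjusted p = 0.0213) also changed upwards. With the compared arrays alone the calls of Exoc3l (adjusted p = 0.101), Nid1 (adjusted p = 0.459) and, among the negative changes above, Pdzk1 (adjusted p = 0.056) were lost, as was that of Tdrp (adjusted p = 0.0546).

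**Figure D5:**
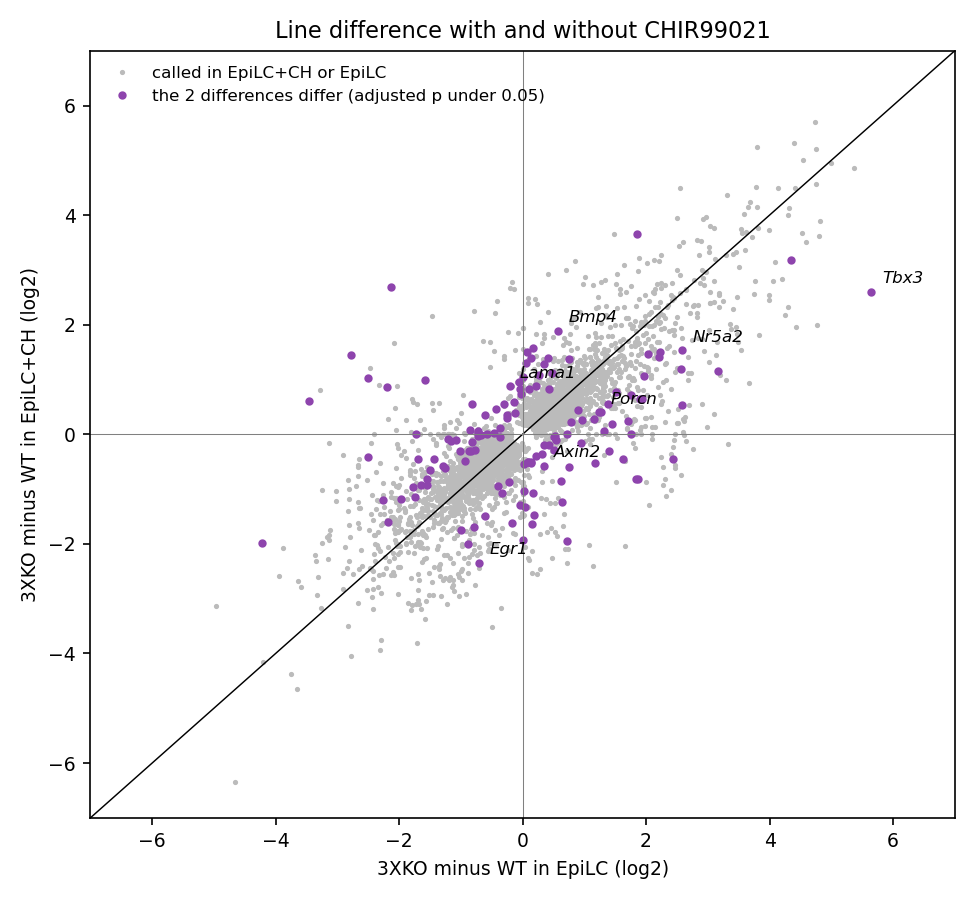
Log2 difference of 3XKO minus WT in EpiLC+CH (vertical axis) and in EpiLC (horizontal axis), with a point per gene called in either condition and purple points where the difference between the 2 was called. Axin2, Porcn, Nr5a2 and Egr1 lie below the diagonal, Bmp4 and Lama1 above it, and the place of Tbx3 depends on the floor.

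The KO and 4XKO lines were set against the same 3 WT EpiLC+CH arrays, so these comparisons are not independent of the one above, and their values are given side by side only. Klf2 averaged 1417 ± 149 in 3XKO EpiLC+CH, 1437 ± 109 in KO EpiLC+CH, 1724 ± 49.1 in 4XKO EpiLC+CH and 514 ± 52.5 in WT EpiLC+CH (SD, n = 3 each). Egr1 averaged 138 ± 4.61 in 3XKO EpiLC+CH, 161 ± 5.27 in KO EpiLC+CH, 226 ± 20.3 in 4XKO EpiLC+CH and 700.5 ± 18 in WT EpiLC+CH. Sp5 averaged 557 ± 78.5 in 3XKO EpiLC+CH, 255 ± 34.6 in KO EpiLC+CH, 24.5 ± 10.1 in 4XKO EpiLC+CH and 988 ± 157 in WT EpiLC+CH. Axin2 averaged 157 ± 2.62 in 3XKO EpiLC+CH, 207 ± 24.5 in KO EpiLC+CH, 74.9 ± 7.96 in 4XKO EpiLC+CH and 234 ± 20.5 in WT EpiLC+CH. For Klf2 and Egr1 all 3 mutant lines stood on the same side of WT, and for Sp5 and Axin2 the lowest mean was that of 4XKO. Acta1, at 16.2 ± 0.866 in 3XKO EpiLC+CH and 408 ± 41.8 in WT EpiLC+CH, lay below the limit on every array of KO and 4XKO EpiLC+CH.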

How the data were processed

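Intensities of 47 Illumina mouse arrays were deposited by the authors as 1 table. Lumi and limma are named without versions or roles, per the submitters' processing notes. The table holds values below 0, and sorted values are nearly the same on each of the 39 arrays used, so it had been normalized before deposit. A floor of 1 was applied before log2, followed by another quantile normalization of these 39 arrays (13 groups). The means model used lmFit and eBayes of limma (version 3.58.1, R version 4.3.3) with 26 residual degrees of freedom and Benjamini-Hochberg adjustment over 25697 probes. The 8 arrays of the LIF and PD media were left out, as they had been normalized apart. Precision is limited by the 3 arrays per group.

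Names came from the platform annotation, updated through RefSeq. Of the probes, 23978 had 1 gene symbol, of which 23971 matched, and 1719 had no single symbol. A gene with several probes was read by its brightest one. A gene below 13.6 on all arrays of a group has only a bound there. The bound is the bright group's geometric mean over 13.6. The members, the 21 lists (333 genes, 303 measured) and the rules for named genes were chosen with earlier results of these data known. The text names the 15 largest called differences in each direction, the 5 largest bounds, list members, the 5 largest changes between EpiLC+CH and EpiLC and the 5 largest of chromosome 1. The code was tested on simulated data. Alternatives were another normalization, floor, filter and variance model, a replicate block, fewer arrays, no chromosome 1, chromosome medians subtracted (added after the data were seen) and each array left out. Python 3.11.15 and matplotlib 3.10.9 made the figures.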

Additional observations from a re-analysis of the deposited data

Results flagged for a closer look

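The line difference, 3XKO minus WT, differed between conditions by its own test in the limma fit for 178 probes between EpiLC+CH and EpiLC and for 2338 probes between EpiLC+CH and ESC. Groups of 3 arrays were too small for a test of single outlying arrays.

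Among the genes named in the text, the change of the line difference in EpiLC+CH relative to EpiLC was negative on the log2 scale for these. In the Wnt pathway it was -2.66 for Sp5, -1.70 for Wnt6, -1.46 for Tnfrsf19, -1.26 for Fzd10, -0.92 for Axin2 and -0.86 for Porcn. In naive and related genes it was -3.05 for Tbx3, -1.04 for Nr5a2, -1.04 for Tfap2c, -0.89 for Nodal and -0.56 for Klf2. With the floor at the limit the change was 0.36 for Tbx3 and -0.82 for Sp5, and neither was called. In stress, growth and signalling genes it was -1.65 for Egr1, -1.10 for Atf5, -0.91 for Cdkn1c, -0.81 for Cdkn1a and -0.56 for Spred1. It was -2.06 for Ephx2, -1.70 for Zfp428, -1.47 for Pdzk1 and -0.68 for the collagen gene Col4a1.

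The change was positive for 11 genes. It was 1.42 for Exoc3l, 1.38 for Atp1b1, 1.32 for Bmp4, 1.25 for Dipk1b, 1.25 for Tdrp and 1.09 for Lama1. It was 0.98 for Thy1, 0.97 for Hey1, 0.97 for Nid1, 0.86 for Ephx1 and 0.40 for Esrrb. Atp1b1 and Ephx1 lie on chromosome 1, whose median was 0.55 in EpiLC+CH and 0.50 in EpiLC. The part of that shift in their change was not tested. Besides the genes given as lost earlier, Sp5, Nodal, Cdkn1a, Spred1, Thy1, Hey1 and Ephx1 lost their call with the compared arrays alone.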

How the results depend on the processing

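Of the 159 named genes called in the main comparison, all 159 kept direction and call without a second normalization or without the dimmest probes, 157 with cyclic loess, 153 with the floor at the background limit and 117 when only the 6 arrays set the spread. With chromosome medians taken off, 7 lost the call but kept their direction. Gapdh and Hk2 turned to 0.052 and 0.072 and lost the call as well. Leaving out single arrays cost 35 genes their call at least once. The 4525 probes called became 2759 with the 6 arrays alone, and 3835 to 4135 with 1 array left out. The 178 probes whose line difference changed between EpiLC+CH and EpiLC became 422 with the floor at the limit, 62 with the compared arrays alone, 90 with the 18 arrays of both lines, and 119 to 197 with 1 array left out. The 2338 probes for EpiLC+CH against ESC became 2824 with the floor at the limit, 1758 with the compared arrays alone and 2022 with the 18 arrays of both lines. With 1 array left out they became 1934 to 2248. The chromosome 1 median of 0.55 became 0.52 at a mean intensity above 200, and 0.53 to 0.56 with 1 array left out. The cause of these changes was not tested beyond the smaller number of arrays in some settings. Genes near 13.6 are limited by background, and values there depend on the floor.

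Counts within the gene lists moved as well. With the floor at the limit, genes higher became 2 for the primitive streak, 2 for FGF/ERK, 3 for 2-cell-like and 3 for trophoblast, and genes lower became 1 for BMP, 3 for Notch and neural, 2 for germline, 2 for p53 and 1 for extraembryonic endoderm. With the 6 arrays alone, genes lower became 6 for glycolysis, 3 for the formative list, 1 for Wnt ligands and receptors, 1 for the primitive streak, 1 for BMP, 1 for fibroblast and 0 for general pluripotency, and genes higher became 3 for basement membrane, 2 for BMP, 2 for germline, 1 for general pluripotency, 0 for FGF/ERK and 0 for LIF/Stat3.

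Deviations of same-numbered arrays of the 2 lines had correlations of 0.23, -0.43 and -0.33, and the highest among other pairs was 0.54. With so few arrays per group, these values cannot show whether the numbers pair the arrays. With the replicate block the counts were 4670, 200 and 2494 instead of 4525, 178 and 2338, and the chromosome 1 median was 0.54.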
